A study of Mus musculus with 6 samples.

Results

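Protamines and transition proteins are the small basic proteins that replace histones while the nucleus of the male germ cell condenses, and the mRNAs of 6 genes linked to this exchange were followed here. They were taken by gene symbol: the protamines Prm1, Prm2 and Prm3, the transition proteins Tnp1 and Tnp2, and Hils1, a spermatid linker histone. All 6 were found among the 14455 genes with a RefSeq mRNA entry above 0 in at least 1 sample. RNA was sequenced by a strand-specific, rRNA-depleted protocol in 4 samples of mature sperm and 2 samples of testes. The mice were untreated C57BL/6 males (C57BL/6J in the study's methods), 3 to 5 months old by the labels, while the methods give an age range in weeks that starts lower. The sperm group held cells from the vas deferens and caudal epididymis, pooled over mice and cleared of somatic cells by detergent lysis. The testes group held portions of testis tissue from the same mice, arranged into 2 replicates, and testis holds earlier germ cells and somatic cells, so the 2 groups differ in cell types as well as in germ cell stage.

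In round spermatids the genes for these proteins are transcribed, and their mRNAs are stored in a repressed state while the nucleus elongates. Transition proteins then displace histones, and protamines displace transition proteins and pack the DNA into its final, compact form. Sperm no longer transcribe their genome, and most mRNA found in them is held to be left from spermatids. Prm1 encodes the protamine made in its mature form, and Prm2 encodes a precursor that is cut on the DNA. Tnp1 and Tnp2 encode the major transition proteins. Prm3 lies in the protamine gene cluster but encodes an acidic protein of the cytoplasm, and Hils1 encodes a linker histone of elongating spermatids.

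Counts are the authors' estimated fragment counts, and CPM here means counts scaled to 1000000 counts of all RefSeq mRNAs in the sample. For sperm this mRNA total was 42390, 100027, 33511 and 54337 (replicates 1 to 4, the order used throughout), and for testes 322625 and 314273 (replicates 1 and 2). A single count was therefore worth 9.997 to 29.8 CPM in sperm and 3.10 to 3.18 CPM in testes, and values of sperm are the less precise. The study left sperm replicate 1 out after a correlation check, and it is kept here. Of 33 markers of leukocytes, epididymal epithelium, Sertoli, Leydig and peritubular cells, spermatogonia and spermatocytes, 22 had an entry and 15 of these were at 0 in every sperm sample. Among the 6949 mRNA genes with 10 or more summed counts, 21.2% were at 0 there. The markers were taken without that filter, so the shares cannot be compared. None of the 15 passed 13 counts in a testes sample, so their 0 in the shallower sperm libraries says little about purity. Kit, Dmc1, Cdh1, Crisp1 and Ptprc had no entry in either group. The spermatogonium and spermatocyte list was at 0 in all sperm samples and at 21.7 and 47.7 CPM in testes, from 7 and 15 counts. A 0 in a single sperm library allows 30.0 to 89.5 CPM (3 counts), so it does not show a lower level there. The same limit holds for the Sertoli and peritubular lists, which reached at most 9.997 CPM (1 count) in sperm. The summed Leydig list stood at 0, 170, 1194 and 110 CPM over the sperm replicates and 558 and 531 CPM in testes, nearly all of it Star, which encodes the cholesterol carrier of steroid synthesis. The epididymal epithelium list stood at 0, 93.6, 303 and 18.4 CPM over the sperm replicates, all of it Adam28, a protease gene, and at 50.4 and 48.1 CPM in testes, so replicates 2 and 3 lay above testes. The leukocyte list reached 73.6 CPM in sperm replicate 4, against 34.1 and 19.1 CPM in testes. The part of these cells in the values below was not tested. In bulk samples, fewer cells of a type and less RNA per cell cannot be told apart.

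Of the 6 genes, 4 form 1 cluster on chromosome 16 in the order Tnp2, Prm3, Prm2 and Prm1, which spans 8889 bases of GRCm38.p6. Only 462 bases separate Prm3 from Prm2, while 4226 separate Prm2 from Prm1. Tnp1 lies on chromosome 1 and Hils1 on chromosome 11. The 150 bases before the transcription start are shown for the pairs of protamine and transition protein genes whose levels are compared below, as RefSeq and GRCm38.p6 give them. Capitals mark the words TGANGTCA, a loosened form of the cAMP response element to which the spermatid activator CREM binds, TATAAA and TATATA, each searched on both strands of the 250 bases before the start.
Prm1, chr16:10796824-10796973, minus strand: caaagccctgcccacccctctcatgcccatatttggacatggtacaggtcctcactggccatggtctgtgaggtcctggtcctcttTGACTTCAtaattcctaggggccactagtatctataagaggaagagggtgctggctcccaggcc
Prm2, chr16:10792106-10792255, minus strand: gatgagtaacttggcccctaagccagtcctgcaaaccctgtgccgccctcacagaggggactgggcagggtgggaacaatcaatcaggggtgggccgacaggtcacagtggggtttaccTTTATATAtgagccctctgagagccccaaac
Tnp1, chr1:73015900-73016049, minus strand: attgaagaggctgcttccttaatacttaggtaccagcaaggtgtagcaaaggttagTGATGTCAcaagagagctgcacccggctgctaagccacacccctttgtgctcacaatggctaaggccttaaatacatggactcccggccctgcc
Tnp2, chr16:10788656-10788805, minus strand: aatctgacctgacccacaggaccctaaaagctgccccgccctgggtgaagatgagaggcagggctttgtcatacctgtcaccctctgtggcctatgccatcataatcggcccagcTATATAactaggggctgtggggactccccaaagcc
The word TGANGTCA was present in Prm1 (64 bases before the start, counted to its first letter), Prm3 (60) and Tnp1 (94), against 7.49% of 32851 mouse promoters of the same length. In Prm1 it is on the strand opposite to the gene, so the printed line shows its complement. The perfect element TGACGTCA, which TGANGTCA includes, was in none of the 6 windows and in 1.55% of all promoters. Prm2 held TATAAA, on the strand opposite to the gene, 31 bases and TATATA 29 bases before the start, which overlap, and Tnp2 held TATATA at 35 bases. Those words were in 12.4% and 5.25% of all promoters. Hils1 held none of the words. The loosened word was chosen after these sequences had been read, and a match is a description of letters, not evidence of binding.

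The comparison of sperm with testes asked which of these messages were still present in mature sperm, and at what level relative to the tissue that made them. Prm2 was abundant in both groups, and its level did not separate them. Tnp1 was called lower in sperm, as was Hils1, which had no count there, and Prm1 and Tnp2 lay lower in every sperm sample without passing the test. Of all mRNA counts the 6 genes together held 0.189% ± 0.0528 in sperm (SD, n = 4), against 0.222% ± 0.0513 in testes (SD, n = 2), so the sum differed by less than the spread between replicates. Its make-up differed: in sperm Prm2 supplied 83.9% ± 8.64 (SD, n = 4) of the counts of the 6 genes, against 46.7% ± 12.8 (SD, n = 2) for testes. Without sperm replicate 1 these sperm means were 0.209% ± 0.0408 and 84.1% ± 10.6 (SD, n = 3). The number of the 6 genes listed above 0 was 3, 5, 2 and 4 over the sperm replicates and 6 in both testes samples.

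**Figure D1:**
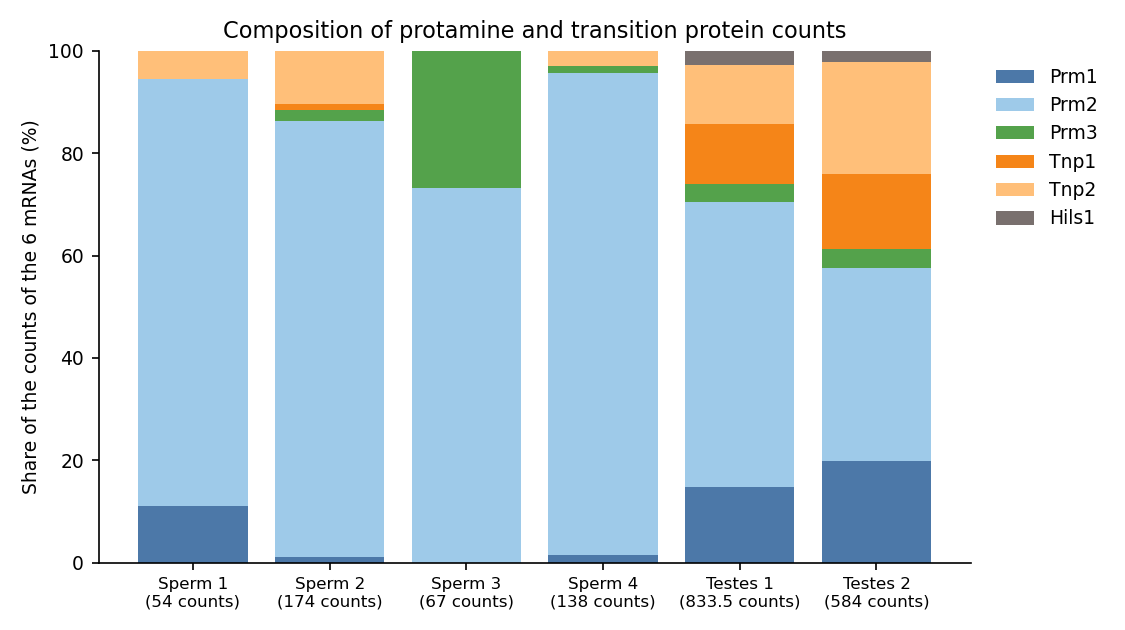
Share (%) of the summed counts of the 6 mRNAs held by each gene in each sample, as stacked bars that start at 0, with the summed count under each bar. Prm2 fills 73.1% to 94.2% of every sperm bar and 37.7% and 55.8% of the testes bars, and Hils1 appears in testes bars only.

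Prm2 (NM_008933, chromosome 16, 10791377 to 10792105, 624 bases of transcript) was abundant in every sample. It had 45, 148, 49 and 130 counts over the sperm replicates, or 1062, 1480, 1462 and 2392 CPM, against 465 and 220 counts, or 1441 and 700.0 CPM, in testes. Sperm replicate 4 was highest, testes replicate 2 was lowest, and the groups overlapped. The sperm mean was 1599 ± 563 CPM (SD, n = 4) and the testes mean 1071 ± 524 CPM (SD, n = 2), with a log2 fold change of 0.58 (SE 0.55) and an edgeR adjusted p of 0.449 (quasi-likelihood test over 6949 genes, Benjamini-Hochberg). The sign was not fixed by the data, since TMM factors gave -0.29 (edgeR adjusted p 0.821) and DESeq2 gave -0.56 (adjusted p 0.635). The median gene lay at -1.15 on this scale, and TMM factors moved that median by -0.82. Relative to the median gene Prm2 was 1.73 higher on the log2 scale, and 1.67 higher with TMM factors. Over the alternatives this offset ranged from 1.07 (without testes replicate 2) to 3.07 (without sperm replicate 2). By FPKM, which scales for transcript length, Prm2 ranked 21, 17, 16 and 10 among the 2025, 6733, 1552 and 3316 mRNA genes listed over the sperm replicates, and 12 and 41 in testes.

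Prm1 (NM_013637, chromosome 16, 10796332 to 10796823, 400 bases) had few counts in sperm. There were 6, 2, 0 and 2 counts over the sperm replicates and 123 and 116 in testes, which is 142, 20.0, 0 and 36.8 CPM against 381 and 369 CPM. By RT-PCR the study readily detected Prm1 and Prm2 in purified sperm RNA, a result on presence that gives no level relative to testes. All 4 sperm values were under the testes values, and the testes samples lay close together. At the mean testes level these sperm samples would hold 15.9, 37.5, 12.6 and 20.4 counts. Summed over samples, the level in testes was 8.64 times that in sperm (exact 95% interval 4.62 to 18.3, counting error only). The log2 fold change was -2.93 (SE 1.30) and did not pass the test (edgeR adjusted p 0.0782). Without sperm replicate 1, which held 6 of the 10 sperm counts, it was -4.13 (SE 1.32) and passed (edgeR adjusted p 0.0297). It also passed with TMM factors (-4.03, edgeR adjusted p 0.0341), with the total of all transcript classes (-3.15, edgeR adjusted p 0.0496) and with DESeq2 (-4.16, adjusted p 0.0067), and it did not pass under the other 9 alternatives (adjusted p 0.0593 to 0.737 by edgeR or limma).

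Prm3 (NM_013638, chromosome 16, 10790508 to 10790914, 407 bases) was uneven among sperm samples. It had 0, 4, 18 and 2 counts over the sperm replicates, or 0, 40.0, 537 and 36.8 CPM, against 28.5 and 21.95 counts, or 88.3 and 69.8 CPM, in testes. Sperm replicate 3 alone stood above the testes samples, and the other sperm samples stood below them. That library was the shallowest, and it also had the highest Star (1194 CPM) and Adam28 (303 CPM). The other Leydig and epididymal markers with an entry were at 0 in it. Its Tssk6 level was 2357 CPM, against 165 to 497 CPM in the other sperm samples. The fitted log2 ratio was 0.90 ± 1.52 SE (adjusted p 0.691 by edgeR). Without sperm replicate 3 it was -1.47 (SE 1.47, edgeR adjusted p 0.470), and with TMM factors it was -0.53, so no direction can be given for Prm3.

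**Figure D2:**
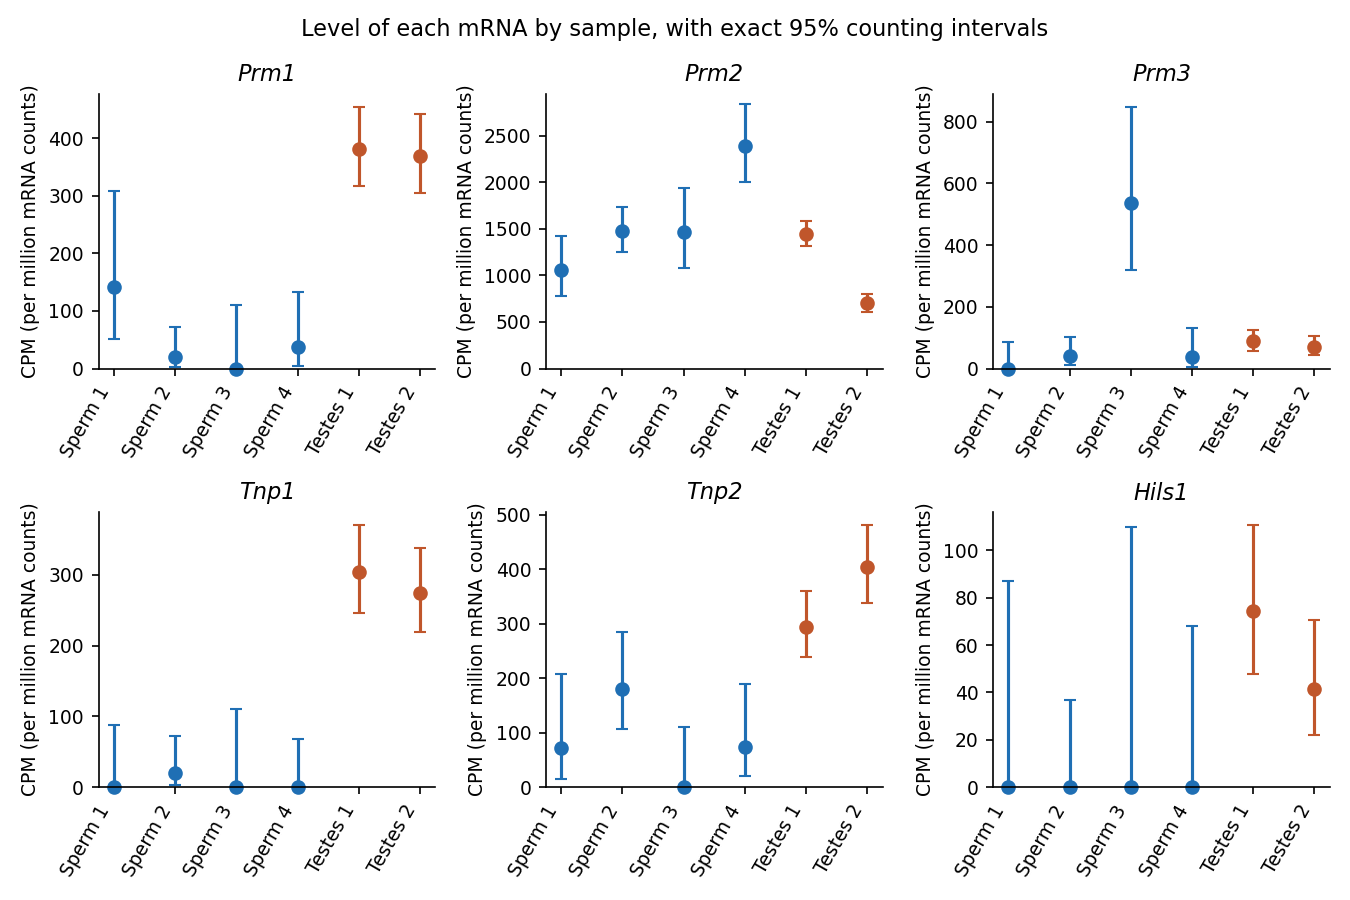
CPM (counts scaled to 1000000 mRNA counts) of each gene in each sample, sperm in blue and testes in orange, with exact 95% intervals that cover counting error only. Each panel has its own axis from 0. Prm2 overlaps between groups, Prm3 is high in sperm replicate 3 alone, and the other genes lie lower in all 4 sperm samples than in both testes samples.

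Among the transition proteins, Tnp1 (NM_009407, chromosome 1, 73015074 to 73015899, 426 bases) was nearly absent from sperm counts. It had 2 counts in sperm replicate 2, or 20.0 CPM, and 0 in the other sperm samples, against 98 and 86 counts, or 304 and 274 CPM, in testes. At the mean testes level sperm replicates 1 to 4 would hold 12.2, 28.9, 9.68 and 15.7 counts. Summed over samples, the level in testes was 33.3 times that in sperm (exact 95% interval 9.08 to 277, counting error only). Tnp1 was called lower in sperm, with a log2 ratio of sperm to testes of -5.16, SE 1.68 (adjusted p 0.0323 by edgeR). It reached the 10 summed counts needed for testing through testes alone. The call was lost without sperm replicate 2 (edgeR adjusted p 0.106), sperm replicate 4 (0.0691), testes replicate 1 (0.368) or testes replicate 2 (0.304), and it held without sperm replicate 1 or 3.

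Tnp2 (NM_013694, chromosome 16, 10787935 to 10788655, 550 bases) was found in 3 of the 4 sperm samples, with 18 of its 25 sperm counts in replicate 2. It had 3, 18, 0 and 4 counts over the sperm replicates, or 70.8, 180, 0 and 73.6 CPM, and 95 and 127 counts, or 294 and 404 CPM, in testes. No sperm sample reached the testes samples. Summed over samples, testes held 3.21 times the sperm level (exact 95% interval 2.12 to 5.07, counting error only). The log2 fold change of -2.01 (SE 1.22) did not pass the test (edgeR adjusted p 0.216), and it passed with DESeq2 (-3.20, adjusted p 0.0329) and under none of the other 12 alternatives.

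Hils1 (NM_018792, chromosome 11, 94967593 to 94968456, 864 bases) was the lowest of the 6 in testes and was not detected in sperm. It had 24 and 13 counts, or 74.4 and 41.4 CPM, in testes and 0 counts in all 4 sperm samples. At the mean testes level sperm replicates 1 to 4 would hold 2.45, 5.79, 1.94 and 3.15 counts, so in no single sperm sample was the depth ample. A count of 0 over the whole sperm group allows up to 13.0 CPM (3 counts). With the testes level taken as exact, Hils1 is then at least 4.46-fold lower in sperm, and at least 2.52-fold without sperm replicate 2, the deepest. The exact 95% interval of the ratio of testes to sperm, formed as for the other genes, began at 3.45. Hils1 passed the filter on low counts through testes alone, so lower was the one call it could get, and 21.2% of all genes tested were likewise at 0 in every sperm sample. It was called lower (edgeR adjusted p 0.0323), but dropping any 1 of the 6 samples ended the call (edgeR adjusted p 0.0691 to 0.136), as did DESeq2 (adjusted p 0.0623).

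With these calls, 2 of the 6 genes were lower and 0 higher in sperm (adjusted p below 0.05 and a fold above 2). For Hils1 the filter fixed the direction, and Tnp1, with 2 counts in sperm, also passed the filter through testes alone. Over all 6949 mRNA genes tested, 17.5% were called lower and 3.83% higher. For 4 of the 6 genes the sperm values were all under the testes values, as they were for 41.4% of all genes tested, and for 0 of the 6 they were all above, against 5.44%. Neither call held without the filter on low counts (edgeR adjusted p 0.245 for each). The median log2 fold change of the 6 was -2.47, against -1.15 over all genes. Nothing is called particular to these genes from such counts, and the split of calls moved with the scaling: higher calls were 18.0% of all calls here and 3.33% with TMM factors.

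Levels within a group were ordered by FPKM, the scale that allows genes to be compared. In testes the order was Prm2 (214 ± 94.5, SD, n = 2), Prm1 (125 ± 4.31), Tnp1 (89.2 ± 1.51), Tnp2 (81.8 ± 22.5), Prm3 (25.7 ± 2.79) and Hils1 (8.18 ± 2.90). Prm2 and Prm1 differed there by less than the SD of Prm2, and Tnp1 and Tnp2 by less than that of Tnp2. In sperm Prm2 (274 ± 113 FPKM, SD, n = 4) was highest in every sample. It was followed by Prm3 (39.8 ± 65.7), Tnp2 (15.7 ± 13.6), Prm1 (14.1 ± 17.9) and Tnp1 (1.22 ± 2.45), whose neighbours differed by less than their spread. Without sperm replicate 1 the Prm1 mean was 5.40 ± 5.49 FPKM (SD, n = 3).

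Shares within a sample need no scaling by depth. The study reports that sperm RNA was largely fragmented and lacked the rRNA peaks seen in testes. A share does not remove such a difference, and its part in these values was not tested. Prm1 made up 11.8%, 1.33%, 0% and 1.52% of the Prm1 and Prm2 counts over the sperm replicates, and 20.9% and 34.5% in testes. The exact 95% interval of sperm replicate 1, 4.44% to 23.9% of 51 counts, reached into that of testes replicate 1, 17.7% to 24.4%. Those of sperm replicates 2 to 4 ended at 4.73%, 7.25% and 5.37%. The sperm mean was 3.65% ± 5.45 (SD, n = 4) and the testes mean 27.7% ± 9.62 (SD, n = 2). For the difference of -24.1 percentage points the exact permutation test, two-sided, gave p = 0.0667 (0.1 when adjusted over 3 shares), the smallest that 4 against 2 samples allow, so this design cannot reach 0.05. Without sperm replicate 1 the difference was -26.8 percentage points (exact permutation p = 0.1, the smallest for 3 against 2).

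Of the transition protein counts, Tnp2 supplied 100%, 90.0% and 100% in sperm replicates 1, 2 and 4, from 3, 20 and 4 counts, and replicate 3 held no count of either gene. In testes its share was 49.2% and 59.6%. The exact 95% intervals of sperm replicates 1 and 4 began at 29.2% and 39.8%, so only replicate 2, with an interval of 68.3% to 98.8%, lay clear of both testes samples on counting error alone. The difference in means was 42.2 percentage points (exact two-sided permutation p = 0.1, adjusted 0.1, the smallest that 3 against 2 allow).

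Transition protein messages as a whole were a smaller share in each sperm sample. Tnp1 and Tnp2 held 5.56%, 11.5%, 0% and 2.90% of the counts of the 2 transition proteins and 3 protamines over the sperm replicates, and 23.8% and 37.3% in testes. All sperm values were under both testes values, and no exact 95% interval of a sperm sample overlapped that of a testes sample. The means were 4.99% ± 4.90 (SD, n = 4) and 30.6% ± 9.52 (SD, n = 2), a difference of -25.6 percentage points (exact two-sided permutation p = 0.0667, adjusted 0.1).

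**Figure D3:**
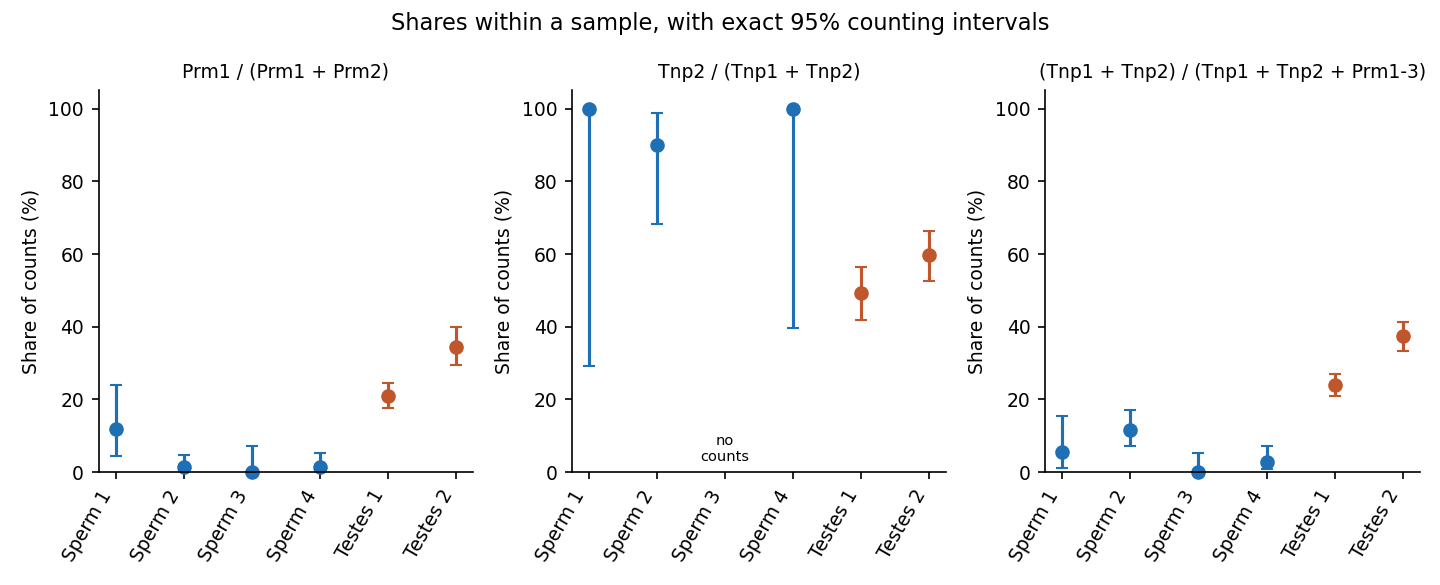
Shares (%) of counts within each sample, sperm in blue and testes in orange, with exact 95% intervals for counting error. The left panel gives Prm1 of both main protamines, the middle panel Tnp2 of both transition proteins, and the right panel transition proteins of transition proteins and protamines. Sperm points lie below testes points on the left and right and above them in the middle, where replicate 3 has no counts.

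Genes that act on these messages and proteins were taken as a list of 30 regulators of their transcription, storage, translation and of chromatin exchange. Of these, 24 could be tested, and 7 were lower and 0 higher in sperm, against 17.5% and 3.83% of all genes. Of the 24, 8 had no count in any sperm sample, against 21.2% of all genes, and 6 of these were among the 7 called: they passed the filter through testes alone, which fixed their direction, so the count says nothing about the list. Their median log2 fold change was -2.003. The bounds given below as at least a fold lower set a floor of 3 counts in sperm and take the testes level as exact. For Hils1 the exact interval, which counts error in both groups, began lower than such a bound. Nasp, a histone chaperone, had 27 and 89 counts in testes and 0 in every sperm sample, at least 13.98-fold lower (edgeR adjusted p 0.0323), a bound of 6.42 without testes replicate 2 and 7.91 without sperm replicate 2. Tbpl1, a relative of the TATA-binding protein required for spermatid development, had 18 and 39 counts in testes and 0 in sperm, at least 6.87-fold lower (edgeR adjusted p 0.0323), a bound of 4.28 and 3.88 without those libraries. Piwil1, a piRNA-binding protein, had 8 counts in each testes sample and 0 in sperm, at least 1.93-fold lower (edgeR adjusted p 0.0413), or 1.09-fold without sperm replicate 2.

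Ybx3, which encodes a Y-box protein that binds stored protamine mRNA, was lower with counts left in sperm. It had 47.2, 160, 0 and 276 CPM over the sperm replicates and 378 and 1120 CPM in testes, with a log2 ratio of sperm to testes of -2.56, SE 0.96 (adjusted p 0.0427 by edgeR). The number of regulators called lower fell to 4 without sperm replicate 3, to 1 without sperm replicate 1, and to 0 without any other sample. Ybx3 itself did not pass with TMM factors (edgeR adjusted p 0.0582). The other regulators called lower were Gtf2a1l, Parg and Paip2, all at 0 in sperm. Crem itself, the activator named above, had 5 and 4 counts in testes and 0 in sperm and was too low to be tested.

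The list of 15 other mRNAs of late spermatids gave calls in both directions. Of 13 tested, 2 were higher and 1 lower, against 3.83% and 17.5% of all genes, with a median log2 fold change of -2.11 against -1.15. Tssk6, a kinase of spermatids, had 165, 300, 2357 and 497 CPM over the sperm replicates and 74.4 and 92.3 CPM in testes, with a log2 ratio of sperm to testes of 3.28, SE 0.95 (adjusted p 0.0204 by edgeR). All sperm samples lay above both testes samples. Spem1, needed for the shedding of spermatid cytoplasm, had 1132, 300, 0 and 589 CPM in sperm and 65.1 and 50.9 CPM in testes (log2 ratio 3.11 ± 1.14 SE, adjusted p 0.0403 by edgeR). Its sperm samples lay on both sides of the testes samples, since replicate 3 had none. Pgk2, the germ cell form of phosphoglycerate kinase, had 11 and 14 counts in testes and 0 in sperm. It was at least 3.01-fold lower with the testes level taken as exact (edgeR adjusted p 0.0323), or 1.70-fold without sperm replicate 2. The filter, passed through testes alone, allowed no other direction. With TMM factors and with DESeq2 neither Tssk6 nor Spem1 passed. Tssk6 was also lost without sperm replicate 2 (edgeR adjusted p 0.106) or 3 (0.101), or testes replicate 1 (0.136) or 2 (0.108). Spem1 held without sperm replicate 3 (edgeR adjusted p 0.000326) and was lost without any other sample (0.0789 to 0.296), with a log2 ratio of 2.37 (adjusted p 0.119) without sperm replicate 1, and Pgk2 was lost without any 1 sample (0.0691 to 0.136).

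Of 10 listed histone variants, not all of them confined to the testis, 6 could be tested and 1 was lower, a share near the 17.5% of all genes. Sperm values were all under the testes values for 4 of the 6, against 41.4% of all genes tested. They were all above for 1, H1fx, against 5.44%. H1fx had 271.5, 550.7, 596.8 and 284.3 CPM over the sperm replicates and 204.6 and 142.5 CPM in testes, and was not called (edgeR adjusted p 0.359). H3f3b, one of the genes for the replacement histone H3.3, had 10.3 and 9.66 counts in testes and 0 in sperm. It was at least 2.41-fold lower with the testes level taken as exact (edgeR adjusted p 0.0323), or 1.36-fold without sperm replicate 2. It too passed the filter through testes alone, and this call was lost in every fit that left out 1 sample. The median of the list was -2.11. The genes next to the cluster on chromosome 16 had low counts in both groups. Of 8 listed, 2 passed the filter on low counts and neither was called. Socs1, an inhibitor of cytokine signalling, had 10, 7, 0 and 1 counts over the sperm replicates and 13 and 10 in testes (log2 ratio 1.15 ± 1.74 SE, adjusted p 0.658 by edgeR). Clec16a had 0, 3.31, 0 and 3.31 counts in sperm and 4.96 in each testes sample (log2 ratio 0.59 ± 1.27 SE, adjusted p 0.761 by edgeR). Their signs turned with DESeq2, and that of Clec16a also with TMM factors.

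**Figure D4:**
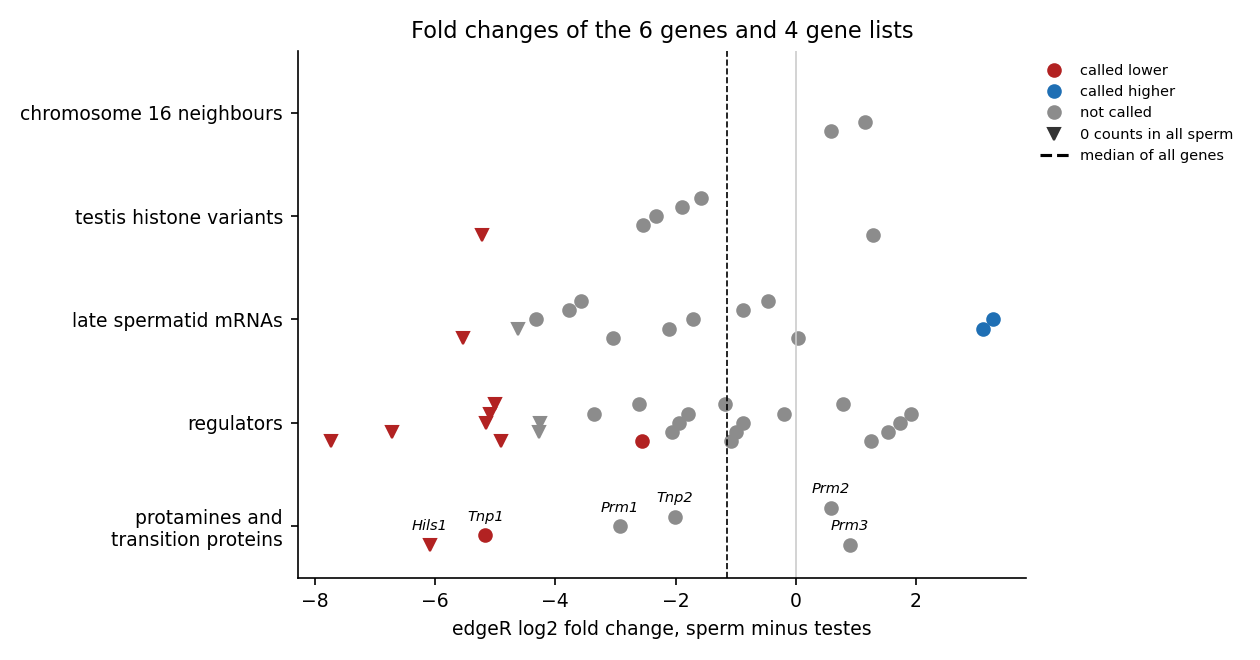
The horizontal axis gives edgeR log2 fold changes, sperm minus testes, for the tested genes of each list, 1 point per gene. Red points were called lower, blue points higher and grey points not called, and triangles mark genes with 0 counts in all sperm, whose position depends on the prior count of the fit. The dashed line is the median of all genes, -1.15. Prm2 and Prm3 lie to its right, Tnp1 and Hils1 far to its left.

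Likeness of pattern was measured as Pearson r of log2(CPM + 10) over the 6 samples, among 2505 genes with 50 or more counts, as a description. These samples share libraries that differ in depth, and r has no p-value here. Closest to Prm2 was Rfx2 (r = 0.997), a transcription factor of spermatids and 1 of the regulators above. It had 47.2, 90.0, 89.5 and 221 CPM over the sperm replicates and 74.4 and 19.1 CPM in testes. These values came from only 2, 9, 3 and 12 counts in sperm and 24 and 6 in testes. Scamp4, which encodes a membrane protein of secretory vesicles, came next (r = 0.970). Closest to Prm1 were Oplah (r = 0.996) and 4930430F08Rik (r = 0.991), both high in testes, lower in sperm replicate 1 and at 0 in replicate 3. Tnp2 was most like Fzd6 (r = 0.989) and Cog1 (r = 0.986). Prm3 was most like Spg11 (r = 0.979) and Slc22a3 (r = 0.978), whose highest value was also in sperm replicate 3, at 478 and 1074 CPM. Tnp1 was matched by Zfp282 and Iqgap1, each with r of 1.0, 27 and 24 counts in testes and 1 count in sperm. Among the members, r was 0.815 for Prm1 with Tnp2, 0.774 for Tnp1 with Tnp2 and 0.759 for Prm1 with Tnp1, and it was -0.540 for Prm1 with Prm2, its neighbour in the cluster.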

How the data were processed

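Reads of 4 sperm and 2 testes samples were cleaned and mapped by the authors, with SOAPaligner/SOAP2 per the methods and with HISAT on mm10 per the submitters' processing notes. The deposited tables give an expected count (estimated fragments, not scaled for depth), FPKM as computed by the authors, and transcript length in bases. The counting program is not given in the sources used here. Counts given to NONCODE or assembled models were not added to these genes.

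Expected counts of RefSeq (NM_) rows were summed per gene, absent rows taken as 0, and scaled by the NM_ total. Counts were rounded and fitted with edgeR 4.0.16 (R 4.3.3) on genes with a summed count of at least 10, without TMM factors, and adjusted over all 6949 genes. SE was derived from the F statistic. Alternatives used DESeq2 1.42.0 and limma 3.58.1 on log2(FPKM + 1). Intervals are exact binomial 95% intervals (scipy 1.17.1) and, like floors of 3 counts, cover counting error only, because PCR copies are not independent molecules. Replicates differed beyond sampling noise (chi-square over its degrees of freedom 4.91 to 12.5, genes with 20 or more counts in a pair), so each counted as its own sample. Ratios of summed counts and the bounds for genes at 0 in sperm pool the samples of a group, and were recomputed without each library after the data were seen. The bounds take the testes level as exact. Labels give no batch, and the testes samples are not stated to match single sperm pools. P-values of the edgeR, DESeq2 and limma fits judge a difference against the spread between these samples, estimated partly across genes. Sperm samples are pools of mice, so this spread is not one between single animals.

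Named were the 6 genes, in each list the 2 called genes with the highest and the 2 with the lowest log2 fold change (where none was called, the 2 with most counts), and the 2 genes most like each member with 50 or more counts. Other genes were named after their values were seen. Members and lists were chosen with earlier results of these data known. Of 16425 NM_ transcripts, 16312 matched GRCm38.p6 by accession, all 6 members included.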

Additional observations from a re-analysis of the deposited data

Results flagged for a closer look

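Values were looked at again where 1 of the 4 sperm samples lay far from the other 3, with Dixon's ratio of gap to range above its 95% critical value for 4 samples. Of 9 measures checked 3 met this, and chance gives about 1 such group in 20 for continuous values, a rate that does not hold for low counts with many 0 values. Prm3 reached 537 CPM in sperm replicate 3, from 18 counts, with a ratio of 0.926, while the other sperm samples had 0 to 40.0 CPM. Tnp1 reached 20.0 CPM in sperm replicate 2, with a ratio of 1.0, which rests on 2 counts in the deepest sperm library, and with the other 3 samples at 0 any count would give that ratio. The Prm1 share of Prm1 and Prm2 counts was 11.8% in sperm replicate 1, with a ratio of 0.871, from 6 of 51 counts, while the others had 0% to 1.52%. Replicate 1 is the sample that the study left out. The causes were not tested.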

How the results depend on the processing

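The 3 shares kept their direction under every alternative tried. Leaving out 1 sample gave differences of -30.9 to -17.3 percentage points for the Prm1 share, 37.0 to 47.4 for the Tnp2 share and -32.3 to -18.9 for the transition protein share. Calls were less stable. At this depth 1 count in the shallowest sperm sample was worth 29.8 CPM, so differences smaller than that could not be seen there. Of the 6 genes 2 were called lower, and 3 with each of TMM factors, the total of all transcript classes and DESeq2. The count was 0 without a filter on low counts, 0 with the replicate block and 0 to 2 when 1 sperm sample was left out. No member was called higher under any alternative. Of the regulators 7 were called lower, and 8 with TMM factors, 9 with limma at pseudocount 0.1, 4 with DESeq2 and 4 with limma on log2(FPKM + 1). The count was 0 without a filter, 0 with the replicate block and 0 to 4 when 1 sperm sample was left out. Of the late spermatid mRNAs 2 were called higher, and 0 with TMM factors, DESeq2, limma at either pseudocount or no filter, 1 with the replicate block and 0 to 1 when 1 sample was left out. Of that list 1 was called lower, and 3 with TMM factors, 2 with the total of all classes, 3 with DESeq2, 7 and 4 with limma at pseudocounts of 1 and 0.1, 0 without a filter, 0 with the replicate block and 0 to 1 when 1 sample was left out. Of the histone variants 1 was called lower, and 3 with limma on log2(FPKM + 1), 0 without a filter, 0 with the replicate block and 0 when any 1 sample was left out.

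Over all genes 266 were higher and 1214 lower, and the counts were 60 and 1740 with TMM factors, 140 and 778 with DESeq2, 201 and 2132 with limma at pseudocount 0.1, 27 and 7 without a filter among 14412 genes, 163 and 103 with the replicate block, and 36 to 338 higher and 16 to 396 lower when 1 sample was left out. Fold changes were followed through the alternatives for 16 genes, the 6 and 10 named from the lists, and signs turned for 4 of them, none called. Prm2 turned to -0.29 with TMM factors and -0.56 with DESeq2. Prm3 turned to -0.53 with TMM factors, -0.38 with DESeq2, -1.19 and -2.03 with limma at pseudocounts of 1 and 0.1, -1.88 with the replicate block and -1.47 without sperm replicate 3 (range -1.47 to 1.29 when 1 sample was left out). Clec16a turned to -0.17 with TMM factors, -0.60 with DESeq2, -0.44 with limma at pseudocount 0.1, -0.076 with the replicate block and -0.01 without sperm replicate 4 (range -0.01 to 0.945). Socs1 turned to -0.038 with DESeq2, -0.032 and -0.75 with limma at pseudocounts of 1 and 0.1, and -0.048 without sperm replicate 1 (range -0.048 to 1.52). The cause of these changes was not tested.

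The replicate block rests on the numbers 1 and 2 that sperm and testes titles share, and sperm replicates 3 and 4 add nothing to its contrast. Deviations from the group means of same-numbered samples had r of -0.0191 and -0.0482 over 6949 genes. Low sperm counts and only 2 testes samples limit this check, so it cannot decide whether same-numbered samples share mice.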
